A study of Mus musculus with 6 samples.

Results

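Aminoacyl-tRNA synthetases are the enzymes that load each amino acid onto its transfer RNA. Their transcripts were followed here in mouse zygotes shortly after the zona pellucida protein ZP3 had been targeted for degradation. Members were the protein-coding genes whose symbols follow the pattern of the synthetase names (one amino acid letter and "ars", with 1 or 2 after it or nothing) together with Farsa, Farsb and Eprs, and names ending in 2 were taken as mitochondrial. The rule found 37 of the 25731 genes in the table, 20 of them cytosolic and 17 mitochondrial, and it used no expression value.

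In Trim-away, an antibody and the ubiquitin ligase TRIM21, which binds antibodies, send a protein to the proteasome. The question was which transcripts differ while the zygotes are still at the pronuclear stage. Each library was a pool of 13 wild-type zygotes from B6C3F1 oocytes and CD1 sires, microinjected 15 h after hCG and lysed 10 h after the injection. The 3 ZP3 Trim-away pools received anti-ZP3 antibody at 1 mg/mL, and the 3 buffer control pools received the antibody's buffer instead. All 6 pools, controls included, also received mCherry-Trim21 mRNA (0.2 mg/mL) with OGDB, the Oregon Green dextran beads used as injection tracer (0.02 mg/mL), so neither group stands for an untouched zygote. ZP3 protein was not measured in these libraries. No label says that the pools were collected separately. The p-values below therefore reflect how far these pools differed within a group, and that variation could be technical only.

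Several facts of the whole dataset touch the results. Libraries held 15291000 to 15746633 reads in ZP3 Trim-away and 17378251 to 20005724 reads in buffer control. Despite the lower totals, 18794 to 20316 genes were above 0 in the ZP3 Trim-away libraries, against 13202 to 14501 in the controls. The deposited columns of control replicates 2 and 3 are means with control replicate 1. They were separated into single libraries before any value given here was computed. Trim21, whose sequence the injected mRNA carries, took 9.12 to 10.99% of reads in ZP3 Trim-away and 14.6 to 18.1% in buffer control, so every other gene had a smaller share to fill in the controls. The median log2 fold change of the 9965 genes tested was 0.22 rather than 0, and changes of the synthetases are read against it. With Trim21 left out of the library totals this median was still 0.14. All 14 zygote and oocyte marker genes were above 0 in every library, with summed levels of 10733 to 12553 RPKM in ZP3 Trim-away and 8132 to 9790 RPKM in buffer control. Of 13 cumulus and granulosa cell markers in the table, 10 to 11 were above 0 in the ZP3 Trim-away libraries and 3 to 6 in the controls. Their summed levels were 24.7 to 34.4 RPKM in ZP3 Trim-away and 12.9 to 26.5 RPKM in buffer control. Cyp19a1, the aromatase of granulosa cells and the most abundant of these markers, ran the other way, at 6.43, 6.13 and 4.60 RPKM in ZP3 Trim-away against 9.95, 8.04 and 10.0 RPKM in buffer control. Of the other granulosa genes, Foxl2 and Fshr were at 0 in all 3 controls and reached at most 0.0195 and 0.350 RPKM in ZP3 Trim-away, while Inha stood at 2.32, 2.80 and 7.49 RPKM in ZP3 Trim-away against 0 in all 3 controls. Tnfaip6 stood at 3.57, 6.95 and 6.92 RPKM in ZP3 Trim-away against 0, 0 and 1.68 RPKM in buffer control. Of the 6 tested markers, 5 had positive log2 fold changes and 1 a negative one, at a median of 0.68, and 0 passed. The part of these cells in the results below was not tested.

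A synthetase first activates its amino acid with ATP and then passes it to the end of the matching tRNA, and the accuracy of this step sets the accuracy of translation. The enzymes fall into classes I and II by the fold of the catalytic domain. Cytosolic and mitochondrial translation are served mostly by separate nuclear genes. Gars and Kars each supply both compartments from a single gene, and mammals have no separate mitochondrial glutaminyl-tRNA synthetase, since Gln-tRNA is made there by amidation of Glu-tRNA. In mammals, several cytosolic enzymes assemble with the scaffold proteins encoded by Aimp1, Aimp2 and Eef1e1 into the multisynthetase complex. A zygote starts out with transcripts stored in the oocyte, and the enzymes they encode charge the tRNAs used before and during the activation of the embryonic genome.

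Levels were compared as RPKM, reads scaled to exon length and to the library total. The length is that of all annotated exons of a gene together, so ratios between genes depend in part on the annotation. Cytosolic synthetases were far more abundant than mitochondrial ones. Averaged over the 6 libraries, the median level was 15.2 RPKM for the 20 cytosolic genes and 0.525 RPKM for the 17 mitochondrial genes, set beside 1.03 RPKM for the 16159 protein-coding genes above 0. In 17 pairs of a cytosolic and a mitochondrial enzyme for the same amino acid, the cytosolic gene had the higher mean in 15, and in 14 of them it was higher in each of the 6 libraries. Farsb, the gene of 1 subunit, stood for cytosolic phenylalanine, and Eprs stood for both glutamate and proline. Farsa, the gene of the other subunit, was below mitochondrial Fars2 in ZP3 Trim-away replicate 3 (9.80 against 10.4 RPKM). The methionine pair rests on few reads in places, with 2 for Mars1 and 4 for Mars2 in ZP3 Trim-away replicate 2. In the valine pair the mitochondrial gene was the higher one. Vars, the cytosolic valyl-tRNA synthetase, had 1, 0 and 1 reads in ZP3 Trim-away and 0, 1 and 0 in buffer control, while mitochondrial Vars2 was higher in all 6 libraries. The tyrosine pair was low on both sides, with Yars and Yars2 under 0.5 RPKM in every library. Counting leaves out reads that match several places in the genome, and whether that lowers the level listed for Vars or Yars was not tested.

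**Figure D1:**
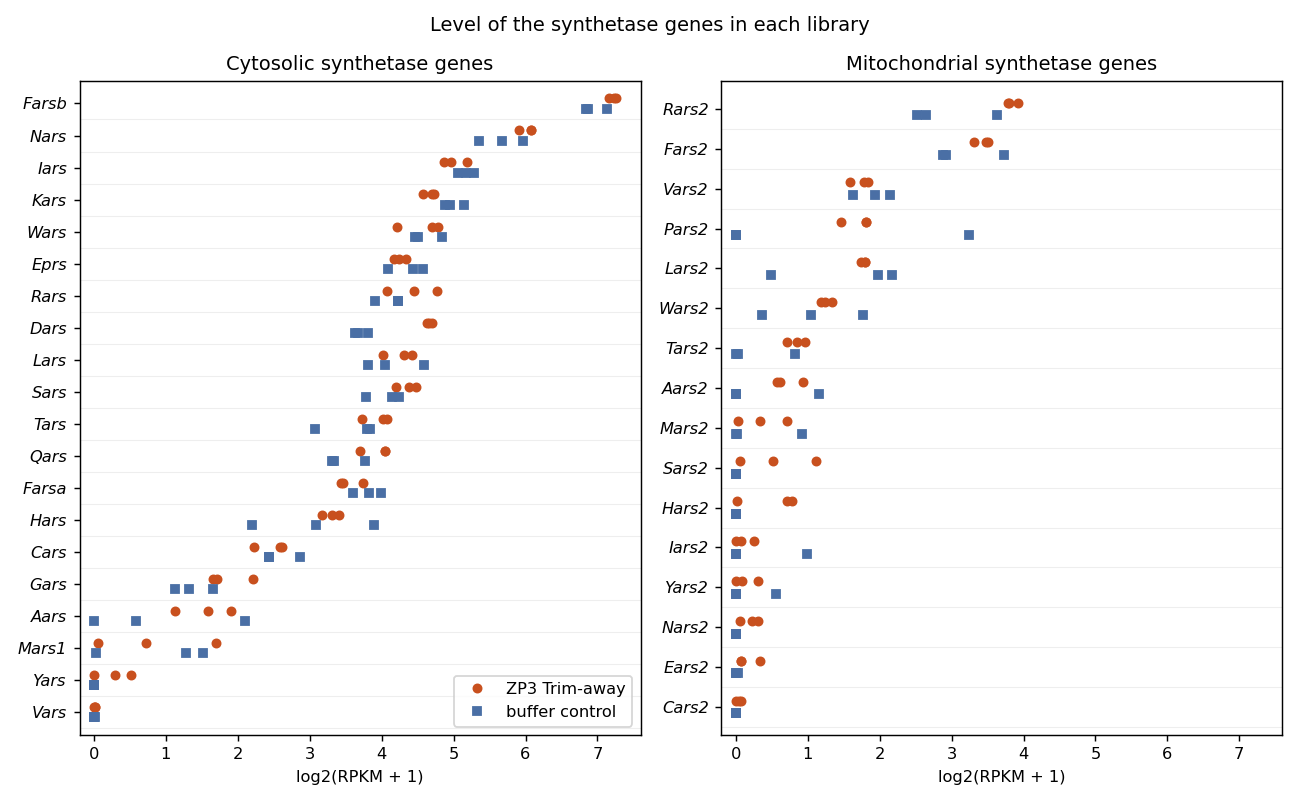
Level of the synthetase genes on the log2(RPKM + 1) scale, cytosolic genes in the left panel and mitochondrial genes in the right one, ordered by mean RPKM. Each circle is one ZP3 Trim-away library and each square below it one buffer control library (3 per group). Cytosolic genes span the whole axis, most mitochondrial genes lie near 0, and squares of the low genes are scattered more widely than circles.

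Farsb (ENSMUSG00000026245) dominated the family. It encodes the beta subunit of cytosolic phenylalanyl-tRNA synthetase, a class II enzyme built from alpha and beta subunits in equal number, and stood at 149, 152 and 142 RPKM in ZP3 Trim-away against 116, 114 and 139 RPKM in buffer control. The ZP3 Trim-away libraries all lay above the controls, the highest control only just below the lowest of them. The log2 fold change was 0.26 ± 0.12 (SE), close to the median of all genes, and did not pass (limma adjusted p = 0.269). It turned to -0.028 with the length trend removed. Of the exon length of Farsb, 9.47% overlaps Sgpp2 on the opposite strand, and no source says that reads were counted by strand. Farsa, the gene of the partner alpha subunit, stood at 9.99, 12.4 and 9.80 RPKM in ZP3 Trim-away and 11.2, 14.9 and 13.1 RPKM in buffer control. The transcript for the beta subunit therefore exceeded that for the alpha subunit in every library, by a ratio of 12.2 to 14.9 in ZP3 Trim-away and 7.61 to 10.6 in buffer control. These ratios do not overlap between the groups, and their difference was not tested. Their size depends in part on the exon lengths, 2620 bases for Farsb and 4538 for Farsa. In reads, Farsb had 6128, 6261 and 5681 in ZP3 Trim-away and 5664, 5959 and 6347 in buffer control. Farsa had 714, 886 and 680 reads in ZP3 Trim-away and 941, 1356 and 1036 in buffer control.

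Nars, the asparaginyl-tRNA synthetase, came next, with 66.6, 59.3 and 66.4 RPKM in ZP3 Trim-away and 61.7, 49.8 and 39.8 RPKM in buffer control (log2 fold change 0.36 ± 0.17, limma adjusted p = 0.299). Farsb and Nars together made up 40.8 to 47.8% of the summed cytosolic level, depending on the library. Iars, the class I isoleucyl-tRNA synthetase, followed with 30.4, 28.0 and 35.5 RPKM in ZP3 Trim-away and 35.1, 37.8 and 32.4 RPKM in buffer control (log2 fold change -0.16 ± 0.16, limma adjusted p = 0.601). The 2 groups overlapped for both genes. Among the mitochondrial enzymes the most abundant were Rars2, described below, Fars2 and Vars2. Fars2, a single-chain enzyme for phenylalanine, stood at 8.94, 10.2 and 10.4 RPKM in ZP3 Trim-away and 6.37, 6.58 and 12.2 RPKM in buffer control, with the highest value in a control. Vars2 stood at 2.001, 2.56 and 2.44 RPKM in ZP3 Trim-away and 2.84, 2.09 and 3.43 RPKM in buffer control, again with overlap.

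None of the synthetases passed the test between ZP3 Trim-away and buffer control. Of the 37 members, 25 reached the mean of 1 RPKM needed to be tested (18 cytosolic, 7 mitochondrial), and 0 of them had a limma adjusted p under 0.05, on a background of 63 of 9965 genes called (0.632%). At an unadjusted p under 0.05 there were 2, Dars and Rars2, against a background of 19.5%. With limma-voom on recovered reads, an alternative chosen after seeing the data, 1 member passed (Dars), and with the control columns as deposited 3 passed (Dars, Rars2 and Farsb). The background was 5.87% of all genes in the first case and 37.3% in the second. The deposited control columns share control replicate 1, so p-values from them do not measure the spread between independent control pools. The log2 fold change was positive for 17 of the 25 and negative for 8, and it was positive for 67.3% of all genes. The ZP3 Trim-away and buffer control libraries did not overlap for 4 members: Dars, Rars2 and Farsb lay higher in ZP3 Trim-away (20.3% of all genes did) and Kars lay lower (6.34% of all genes did). The median log2 fold change was 0.25 over the 18 cytosolic members and 0.26 over the 7 mitochondrial members, both within 0.04 of the median of all genes. Since the pools are bulk samples, fewer cells of a type and less RNA per cell cannot be told apart in any of these values.

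**Figure D2:**
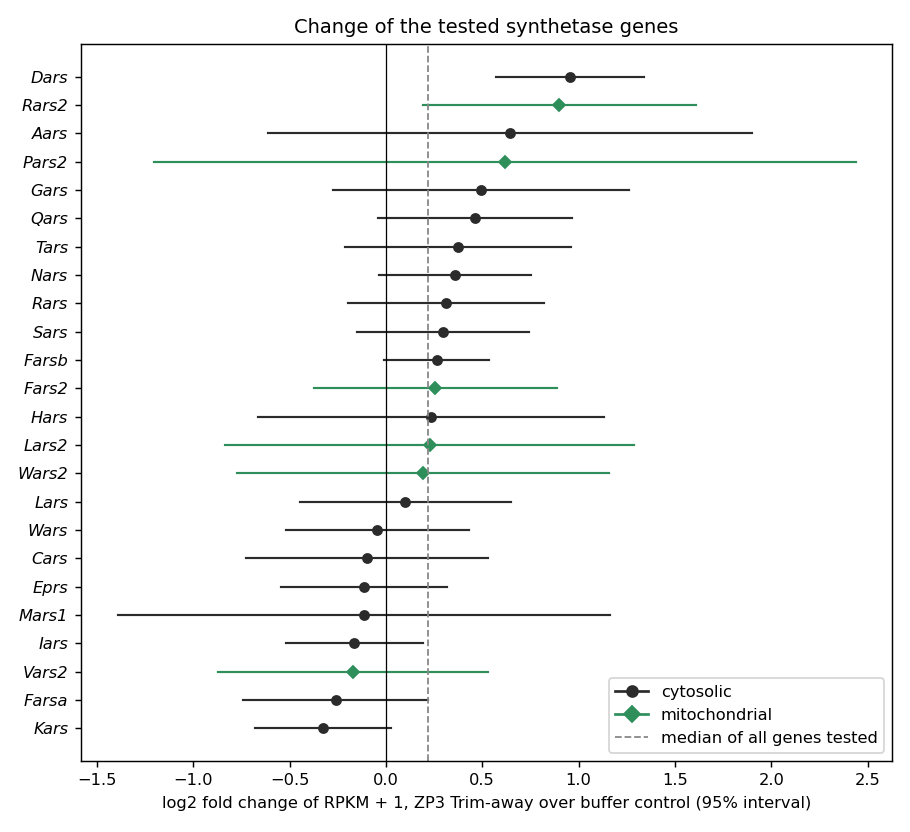
Log2 fold change of RPKM + 1, ZP3 Trim-away over buffer control, for the tested synthetase genes. Points are limma estimates and bars their 95% intervals, circles are cytosolic and diamonds mitochondrial genes, and the dashed line marks the median of all 9965 genes, 0.22. The intervals of Dars (0.57 to 1.34) and Rars2 (0.19 to 1.61) lie above 0 and all others drawn cross it.

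Dars (ENSMUSG00000026356) had the largest log2 fold change among the 25 tested members on the log2(RPKM + 1) scale. It encodes the class II aspartyl-tRNA synthetase of the multisynthetase complex, and its level was 24.3, 24.9 and 23.7 RPKM in ZP3 Trim-away against 13.1, 11.7 and 11.4 RPKM in buffer control. The groups were far apart and each was tight, at 24.3 ± 0.592 RPKM in ZP3 Trim-away and 12.1 ± 0.877 RPKM in buffer control (SD, n = 3 each). The values rest on 1669, 1705 and 1579 reads in ZP3 Trim-away and 1056, 1022 and 863 reads in buffer control, so counting depth does not limit them. The log2 fold change was 0.96 ± 0.17, and its limma adjusted p of 0.0515 fell just short of the threshold. Dars passed under 5 of 17 alternatives: the columns as deposited (0.90, limma adjusted p = 0.00101), a required mean of at least 5 RPKM (0.0300), control replicate 1 left out (0.0413), control replicate 2 left out (0.0422) and limma-voom on recovered reads (0.0222). Where single members are called in these settings, the background was 4.93% of genes with at least 5 RPKM, 1.61% without control replicate 1 and 3% without control replicate 2. The deposited control columns share a library and are not independent, so the p-value from them does not measure the spread between control pools. Dars did not pass under the other alternatives, with limma adjusted p values of 0.227, 0.289 and 0.234 when ZP3 Trim-away replicate 1, 2 or 3 was left out. Its direction was the same throughout, with log2 fold changes of 0.77 to 1.01. Other members had larger estimates in some settings, among them Rars2 with the columns as deposited (1.07) and without control replicate 2 (1.25). Pars2 was above Dars with a pseudocount of 0.1 (2.40), without control replicate 3 (1.70) and with limma-voom (4.74). Aars was above it with a pseudocount of 0.1 (1.75), without control replicate 1 (1.25) and with limma-voom (3.65).

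**Figure D3:**
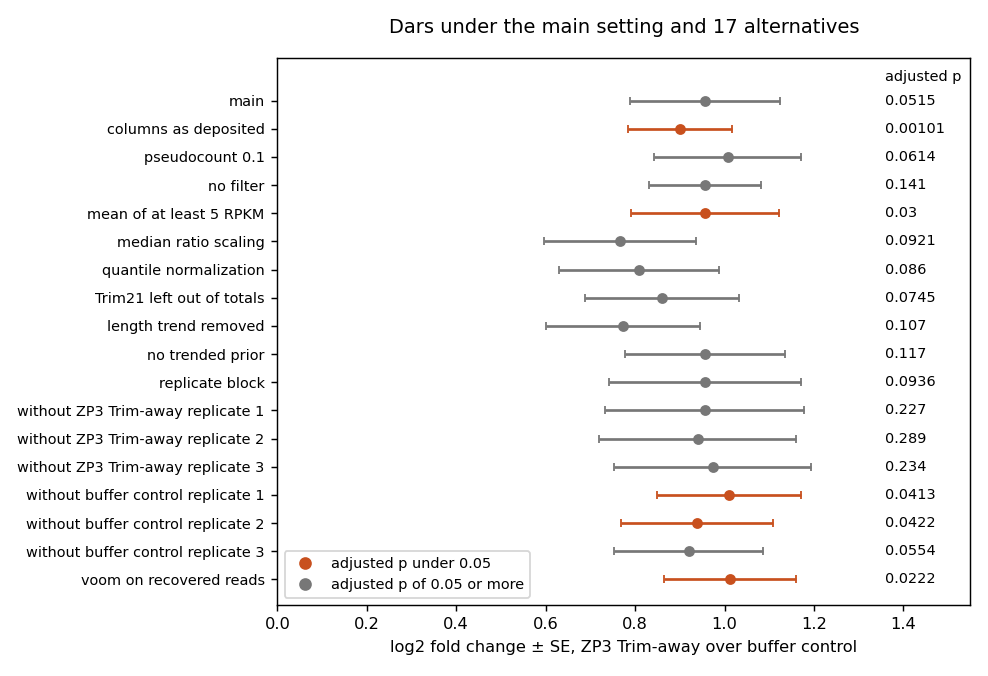
Log2 fold change of Dars, ZP3 Trim-away over buffer control, with its SE, in the main setting and 17 alternatives, and the limma adjusted p of each at the right. Every estimate lies between 0.77 and 1.01, and the 5 with an adjusted p under 0.05 are drawn in orange.

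Dars showed a GC box, the motif GGGCGG bound by Sp family factors, in the bases before its RefSeq start (GRCm38.p6). The 200 bases upstream are given because Dars came nearest to the threshold among the tested members and Eef1e1 had the only call in the complex, with GC boxes on either strand in capitals. The first lies at chr1:128417417-128417616 and the second at chr13:38659029-38659228, both on the minus strand.
Dars: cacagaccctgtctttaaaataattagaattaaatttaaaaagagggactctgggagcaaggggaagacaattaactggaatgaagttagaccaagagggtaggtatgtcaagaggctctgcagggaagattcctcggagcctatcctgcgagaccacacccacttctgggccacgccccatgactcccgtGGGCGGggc
Eef1e1: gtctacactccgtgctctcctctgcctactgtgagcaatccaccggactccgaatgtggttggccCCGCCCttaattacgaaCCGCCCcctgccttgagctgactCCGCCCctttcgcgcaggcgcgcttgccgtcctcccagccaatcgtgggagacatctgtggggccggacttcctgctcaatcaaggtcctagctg
The motif is common. Over windows of 250 bases before to 50 after the start it was found on either strand in 38.2% of 27025 genes, in 8 of 13 cytosolic and in 11 of 14 mitochondrial synthetases with a promoter sequence. A match is a description of the letters and says nothing of binding.

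Most of the other enzymes of the complex did not move with Dars. The complex holds 8 synthetase genes, and over these the median log2 fold change was -0.01, with 4 positive and 4 negative, while the 10 tested cytosolic enzymes outside it had a median of 0.28. Kars (ENSMUSG00000031948), the class II lysyl-tRNA synthetase, which also serves the mitochondria, ran against Dars. It stood at 25.1, 22.8 and 25.5 RPKM in ZP3 Trim-away and 28.5, 34.3 and 29.9 RPKM in buffer control, with every ZP3 Trim-away library below every control (log2 fold change -0.32 ± 0.16, limma adjusted p = 0.295). Qars, the glutaminyl-tRNA synthetase, stood at 12.002, 15.5 and 15.5 RPKM in ZP3 Trim-away and 12.6, 9.07 and 8.91 RPKM in buffer control, where a single control reached into the range of ZP3 Trim-away (0.46 ± 0.22, limma adjusted p = 0.296). Log2 fold changes of the remaining 5 enzymes were 0.31 for Rars, 0.10 for Lars, -0.11 for Eprs, -0.12 for Mars1 and the value of Iars given above. Rars, Lars and Eprs serve arginine, leucine and, from a single fused protein, glutamate and proline. Mars1, the methionyl-tRNA synthetase that supplies both initiator and elongator tRNA, was the lowest of the complex, at 0.649, 0.0372 and 2.24 RPKM in ZP3 Trim-away and 0.0157, 1.43 and 1.85 RPKM in buffer control. Its libraries differed more within each group than between the groups.

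One scaffold gene of the complex passed. Eef1e1 (ENSMUSG00000001707), also known as p18 or AIMP3, stood at 40.7, 45.9 and 39.0 RPKM in ZP3 Trim-away against 21.8, 22.1 and 22.2 RPKM in buffer control. The controls were nearly alike and lay well below all 3 ZP3 Trim-away libraries. The log2 fold change was 0.89 ± 0.15 (limma adjusted p = 0.0392). The call was lost without ZP3 Trim-away replicate 1 (limma adjusted p = 0.213), replicate 2 (0.289) or replicate 3 (0.214), and under the other scalings (0.0815 with median ratio scaling, 0.0772 with quantile normalization and 0.0709 with Trim21 left out of the totals). Aimp1 stood at 2.32, 2.55 and 1.56 RPKM in ZP3 Trim-away and 1.29, 1.95 and 0.656 RPKM in buffer control (0.48 ± 0.36, limma adjusted p = 0.505). Aimp2 pointed the other way without passing, at 6.53, 6.92 and 9.65 RPKM in ZP3 Trim-away and 12.4, 9.55 and 7.51 RPKM in buffer control (-0.31 ± 0.26, limma adjusted p = 0.559). Both overlapped between the groups.

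**Figure D4:**
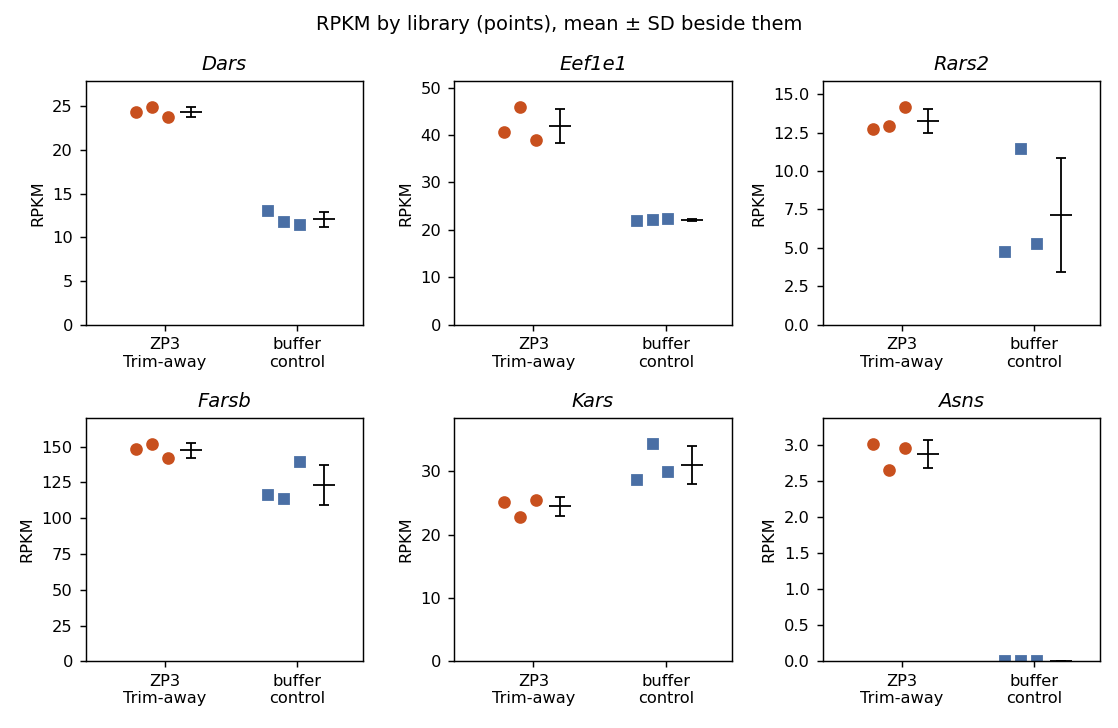
RPKM of 6 genes in each library on linear axes that start at 0, with 3 ZP3 Trim-away libraries as circles at the left of each panel and 3 buffer control libraries as squares at the right. Bars give mean ± SD (n = 3). The groups do not overlap in any panel. Kars is lower in ZP3 Trim-away and the other 5 genes are higher, and only Eef1e1 and Asns passed the test.

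Next to Dars in estimate among the tested members, on the log2(RPKM + 1) scale, came Rars2 (ENSMUSG00000028292), the mitochondrial arginyl-tRNA synthetase. It stood at 12.7, 12.9 and 14.2 RPKM in ZP3 Trim-away against 4.72, 11.4 and 5.25 RPKM in buffer control. The ZP3 Trim-away libraries agreed within 2 RPKM, while control replicate 2 lay far above the other two controls and close to ZP3 Trim-away. The log2 fold change was 0.90 ± 0.31 and did not pass (limma adjusted p = 0.167). It passed without control replicate 2 (1.25, limma adjusted p = 0.0396) and in the deposited columns (1.07, limma adjusted p = 0.00353), in which that library is averaged with control replicate 1. Controls in those columns are not independent of one another. Rars2 was also close in level to its cytosolic partner, which exceeded it by a ratio of 1.11 to 3.74 over the 6 libraries. For arginine, then, the transcript for the mitochondrial enzyme was nearly as abundant as the cytosolic one in ZP3 Trim-away replicate 3, at 14.2 against 15.8 RPKM.

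The remaining members named for the size of their estimates overlapped between the groups, and all but Tars were low in level. Aars, the alanyl-tRNA synthetase, stood at 2.01, 1.19 and 2.73 RPKM in ZP3 Trim-away and 3.29, 0 and 0.502 RPKM in buffer control (0.65 ± 0.55, limma adjusted p = 0.558), and 14.3% of its exon length overlaps Exosc6 on the same strand. Pars2, the mitochondrial prolyl-tRNA synthetase, stood at 2.50, 1.77 and 2.52 RPKM in ZP3 Trim-away and 0, 0 and 8.46 RPKM in buffer control (0.62 ± 0.80, limma adjusted p = 0.710). The highest of the 6 values was thus a control. Gars, which encodes the glycyl-tRNA synthetase of cytosol and mitochondria, stood at 2.16, 2.26 and 3.65 RPKM in ZP3 Trim-away and 2.16, 1.19 and 1.49 RPKM in buffer control (0.49 ± 0.34, limma adjusted p = 0.461). Tars, the threonyl-tRNA synthetase, stood at 15.2, 12.3 and 15.8 RPKM in ZP3 Trim-away and 13.3, 12.9 and 7.38 RPKM in buffer control (0.37 ± 0.26, limma adjusted p = 0.462). The other tested cytosolic genes were Sars, Hars, Wars, Cars and Farsa, for serine, histidine, tryptophan, cysteine and phenylalanine, with log2 fold changes from -0.26 (Farsa) to 0.29 (Sars). Lars2 and Wars2, the mitochondrial leucine and tryptophan enzymes, had log2 fold changes of 0.23 and 0.19, and their groups overlapped.

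By structural class, the log2 fold change was above 0 for 11 of 13 tested class II genes (median 0.34) and for 6 of 12 class I genes (median 0.03), on either side of the median of all genes. Over all genes tested, 67.3% were above 0. Class II holds Dars, Farsb, Nars, Kars, Gars, Tars and the alanine, serine, histidine and proline enzymes. Class I holds Iars, Lars, Vars2, Qars, Rars, Cars, Wars and the methionine enzymes. Eprs, which joins a class I and a class II enzyme, was counted in class I. The difference between the classes was not tested.

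Summed over the 20 cytosolic genes, the level was 449.8, 445 and 455 RPKM in ZP3 Trim-away and 394, 400.5 and 395 RPKM in buffer control. The sums do not overlap between the groups, but they depend on what the libraries are scaled to. With Trim21 left out of the library totals they were 489 to 512 RPKM in ZP3 Trim-away and 462 to 481 RPKM in buffer control. With median ratio scaling they were 414 to 427 RPKM in ZP3 Trim-away and 420 to 434 RPKM in buffer control, and overlapped, with the lower mean in ZP3 Trim-away. The mitochondrial sum was 33.9, 35.9 and 38.3 RPKM in ZP3 Trim-away and 18.5, 26.3 and 36.6 RPKM in buffer control, and the groups overlapped. No test was run on the sums.

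Where ZP3 Trim-away and buffer control libraries differed most plainly in the synthetases was in how many low genes were detected at all. Reads above 0 were found for 37, 33 and 36 of the 37 members in the ZP3 Trim-away libraries and for 23, 29 and 28 in the controls. A count of 0 allows up to 3 reads, and with more than 3 required the numbers were 33, 32 and 34 in ZP3 Trim-away and 22, 26 and 27 in buffer control. The mitochondrial genes accounted for nearly all of this, with 14, 15 and 15 of 17 above 3 reads in ZP3 Trim-away against 5, 9 and 9 in buffer control. Cytosolic genes above 3 reads numbered 19, 17 and 19 of 20 in ZP3 Trim-away and 17, 17 and 18 in buffer control. The numbers of all genes above 0, given earlier, differ in the same direction, and whether the synthetases differ beyond them was not tested.

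**Figure D5:**
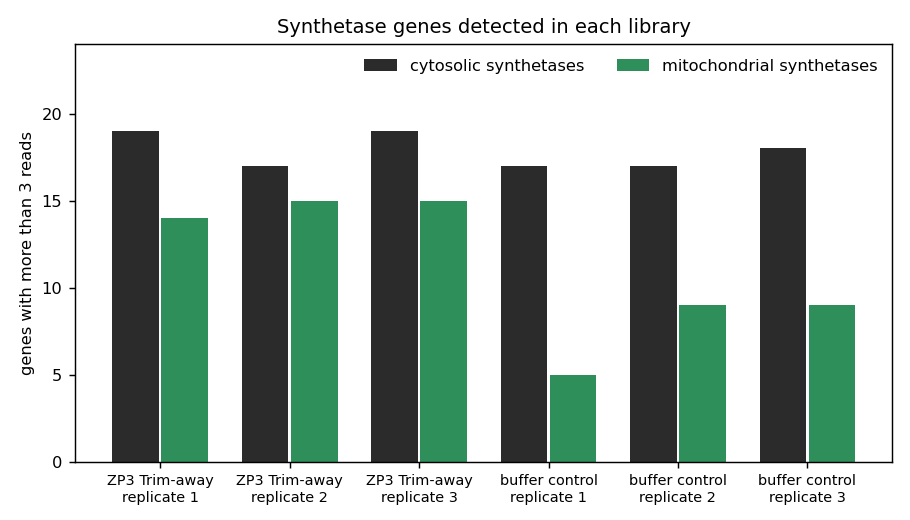
Number of synthetase genes with more than 3 reads in each library, for the 20 cytosolic genes (dark bars) and the 17 mitochondrial genes (green bars), with the 3 ZP3 Trim-away libraries at the left and the 3 buffer control libraries at the right. Mitochondrial genes numbered 14 to 15 in ZP3 Trim-away and 5 to 9 in buffer control, while cytosolic genes numbered 17 to 19 in ZP3 Trim-away and 17 to 18 in buffer control.

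Some of the low synthetase transcripts were unevenly spread over the control libraries, with no read in one and many in another. Pars2 had 122, 86 and 119 reads in ZP3 Trim-away and 0, 0 and 455 reads in buffer control. Iars2, the mitochondrial isoleucine enzyme, had 27, 0 and 7 reads in ZP3 Trim-away and 0, 176 and 0 reads in buffer control. Mars2, the mitochondrial methionine enzyme, had 112, 4 and 45 reads in ZP3 Trim-away and 0, 3 and 175 reads in buffer control. These 3 genes were chosen after their values were seen, as examples of genes at 0 in some controls and high in another. Among the members, 0 genes had no read in one ZP3 Trim-away library and over 50 in another, and 7 had this pattern among the controls. Over the 24959 genes with recovered reads, the pattern was present in 0.453% among the ZP3 Trim-away libraries and in 10.3% among the controls. The median SD of log2(RPKM + 1) between libraries of a group was 0.106 in ZP3 Trim-away and 0.706 in buffer control over the 7 tested mitochondrial genes. For the 18 cytosolic genes it was 0.178 in ZP3 Trim-away and 0.251 in buffer control, and for all genes 0.202 in ZP3 Trim-away and 0.436 in buffer control.

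In total, 5 members had no read in any control, namely Yars and the mitochondrial Sars2, Hars2, Nars2 and Cars2, and 0 members had no read in any ZP3 Trim-away library. Over the whole table, too, fewer genes were above 0 in the controls (13202 to 14501) than in ZP3 Trim-away (18794 to 20316). Whether the members at 0 in the controls go beyond this difference was not tested. None of the 5 reached the level needed for the test. Sars2, the mitochondrial serine enzyme, had 2, 61 and 22 reads in ZP3 Trim-away, and its mean was at least 10.5-fold higher than the level that 3 reads in a control library would give. Hars2, the mitochondrial histidine enzyme, had 1, 48 and 42 reads in ZP3 Trim-away (at least 11.3-fold higher by mean), and 4.56% of its exon length overlaps Hars on the opposite strand. Yars, the cytosolic tyrosine enzyme, had 40, 0 and 20 reads in ZP3 Trim-away (at least 7.43-fold higher by mean). Nars2, the mitochondrial asparagine enzyme, had 26, 19 and 4 reads in ZP3 Trim-away (at least 6.03-fold higher by mean). Cars2, the mitochondrial cysteine enzyme, had 3, 6 and 0 reads in ZP3 Trim-away, too close to the 3-read limit for a fold. Even the best covered of these genes varied widely among the ZP3 Trim-away libraries, and the bounds cover counting error only. Of the other untested members, Tars2 had 103, 87 and 67 reads in ZP3 Trim-away and 0, 106 and 3 in buffer control, and Aars2 had 37, 40 and 66 in ZP3 Trim-away and 0, 0 and 101 in buffer control. Ears2 stayed at 21 reads or fewer and Yars2 at 30 or fewer in each library.

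Several cytosolic synthetase genes are known targets of ATF4, a transcription factor that is made when amino acids or charged tRNAs run short and that binds composite C/EBP-ATF response elements. The element, searched as TGATGNAA on both strands in the RefSeq windows of 250 bases before to 50 after the start, was present in 5 of 13 cytosolic synthetases, in 0 of 14 mitochondrial ones and in 4.51% of 27025 genes. The windows below show a match of each gene in capitals within 30 bases (GRCm38.p6), since these are the members with the element.
Aars, chr8:111033840-111033869, plus strand: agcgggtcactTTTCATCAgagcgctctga
Gars, chr6:55037960-55037989, plus strand: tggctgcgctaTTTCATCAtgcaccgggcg
Iars, chr13:49682126-49682155, plus strand: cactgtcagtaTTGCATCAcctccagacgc
Tars, chr15:11399655-11399684, minus strand: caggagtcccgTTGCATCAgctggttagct
Yars, chr4:129189895-129189924, plus strand: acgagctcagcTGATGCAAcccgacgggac
Sequences are written 5′ to 3′ on the gene's own strand, and the matches shown for Aars, Iars and Yars lie past the annotated start. All but the match in Yars read as the reverse complement of the searched letters. Of these 5 genes, Aars, Gars and Tars had positive log2 fold changes (0.65, 0.49 and 0.37), Iars a negative one (-0.16), and Yars was not tested. None of the 4 tested passed.

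In the ATF4 list as a whole, 21 of 36 genes were tested and 1 passed, on the background of 0.632% of all genes tested. That gene was Asns (ENSMUSG00000029752), asparagine synthetase, which stood at 3.02, 2.65 and 2.97 RPKM in ZP3 Trim-away against 0 in all 3 controls (limma adjusted p = 0.0421). The ZP3 Trim-away libraries were alike, and their mean was at least 45.6-fold higher than the level of 3 reads in a control library. This bound, too, covers counting error only. With 0 in every control, Asns reached the mean of 1 RPKM needed for the test through its ZP3 Trim-away libraries alone. Of all genes with recovered reads, 10.3% had no read in one control and over 50 in another. The call was lost without any single ZP3 Trim-away library (limma adjusted p of 0.228, 0.289 and 0.234) and under the scalings that cost Eef1e1 its call (0.0736, 0.0772 and 0.0690 in the order given there). With no filter it was lost as well (limma adjusted p = 0.173). The log2 fold change was positive for 12 of the 21 genes and negative for 9, against 67.3% positive over all genes tested. Its median was 0.15, below that of all genes. The groups did not overlap for 5 of the 21 genes that were higher in ZP3 Trim-away (20.3% of all genes tested) and for 5 that were lower (6.34% of all genes tested). The higher ones were Nupr1, Asns, Atf4 itself, Cth and Slc7a11, with log2 fold changes from 3.56 (Nupr1) to 0.50 (Slc7a11). Of these only Asns passed, and Atf4 had a log2 fold change of 0.59 ± 0.26 (limma adjusted p = 0.258). The lower ones were Eif2ak4, Ppp1r15a, Shmt2, Cebpg and Gpt2, with log2 fold changes from -0.89 (Eif2ak4) to -0.52 (Gpt2), and none of them passed. Mthfd2, a mitochondrial one-carbon enzyme and the most abundant gene of the list, stood at 85.7, 100.06 and 91.5 RPKM in ZP3 Trim-away and 92.5, 97.7 and 103 RPKM in buffer control, with overlap.

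The genes on either side of the synthetases in tRNA use gave no call. Of the charging accessory genes (editing factors, the formylation and amidation enzymes of mitochondria, and the selenocysteine branch), 7 of 12 were tested and 0 passed, with 2 positive and 5 negative log2 fold changes and 0 at an unadjusted p under 0.05. Their most abundant gene, Sepsecs, which makes selenocysteinyl-tRNA, stood at 10.6, 11.7 and 9.45 RPKM in ZP3 Trim-away and 8.61, 12.4 and 12.2 RPKM in buffer control. Of the tRNA end processing and export genes, 11 of 20 were tested and 0 passed, with 4 at an unadjusted p under 0.05 and 10 of 11 positive (19.5% and 67.3% of all genes tested), at a median log2 fold change of 0.50. Ssb, the La protein that binds the ends of new tRNA transcripts, led this list with 406, 412 and 342 RPKM in ZP3 Trim-away and 236, 303 and 281 RPKM in buffer control. Its groups did not overlap (0.50 ± 0.13, limma adjusted p = 0.0858). Of the genes that deliver charged tRNA to the ribosome, 9 of 10 were tested and 0 passed, with 3 at an unadjusted p under 0.05 and 8 of 9 positive, against the same shares of all genes. Eif2s2, a subunit of the factor that carries initiator tRNA, led these genes in level, with 56.3, 62.6 and 52.2 RPKM in ZP3 Trim-away and 35.1, 45.0 and 48.4 RPKM in buffer control (0.41 ± 0.16, limma adjusted p = 0.210). Over these lists and the scaffold together, 2 of 51 tested genes passed, Eef1e1 and Asns, on the background of 0.632%. Asns was among the tested genes only through its ZP3 Trim-away values.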

How the data were processed

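RNA was sequenced from 6 pools of zygotes with a low-input oligo-dT kit. The authors deposited RPKM values for 25731 genes. These came, per the labels and the methods, from reads of 72 bases that passed through FastQC 0.11.9, Trimmomatic, HISAT2, SAMtools and HTSeq gene counting. The sources used here give no other tool versions. GRCm39 is the build in the labels and GRCm38 that in the methods. GENCODE release M21 (GRCm38) gave exon lengths, as the union of all annotated exons of a gene.

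Control columns 2 and 3 never fell below 0.5 times column 1 in 13202 genes and equalled that value in 2059 and 2090 genes, so each was treated as a mean with control replicate 1 and separated as 2 times the column minus replicate 1. Whole reads (within 0.01) were then recovered for 95.0 to 96.0% of values, against 9.59% and 9.02% for those columns as deposited. All 37 members gave whole reads in every library.

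Groups were compared with limma 3.58.1 (R 4.3.3, trended prior) on log2(RPKM + 1), keeping genes whose mean reached 1 RPKM. P-values were two-sided and adjusted by Benjamini-Hochberg over every gene tested, and 0.05 was the threshold. Fold changes on this scale understate the change of low genes. The fit was tested on simulated data, drawn as normal values with the same SD in both groups. That check does not cover the unequal spread of the groups seen here. Python 3.11.15 with pandas 2.3.3, numpy 2.4.6 and scipy 1.17.1 handled tables. Promoters came from RefSeq (GRCm38.p6) by symbol, for 27 of 37 members.

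Values per library are given for members that passed, that did not overlap between groups, that had the 8 largest changes, that were the 3 most abundant of each compartment, that were at 0 in a whole group or that serve both compartments, and for the scaffold genes. Members and lists were chosen with earlier results of these data known. Alternatives were the deposited columns, a pseudocount of 0.1, no filter, a filter at 5 RPKM, median ratio and quantile scaling, Trim21 left out of totals, a length trend removed, no trended prior, a replicate block, each library left out, and limma-voom (at least 10 reads in 2 libraries), the last added after seeing the data. The marker Ptx3 was not used here. The values of 1 member, which enters the counts and medians, and a promoter window are not reported here.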

Additional observations from a re-analysis of the deposited data

How the results depend on the processing

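Over the whole table, 63 genes passed. Counts below from the columns as deposited rest on controls that share control replicate 1 and are not independent. The count was 3707 with the columns as deposited, 19 with a pseudocount of 0.1, 0 with no filter, 257 with a mean of at least 5 RPKM, 12 with median ratio scaling, 24 with quantile normalization, 19 with Trim21 left out of the totals, 32 with the length trend removed, 11 with no trended prior and 827 with limma-voom on recovered reads, and it ran from 0 to 300 with one library left out. Synthetases that passed numbered 0, against 3 with the columns as deposited, 1 with at least 5 RPKM, 1 with limma-voom and 0 to 2 with one library left out. Accessory and pathway genes that passed numbered 2, against 24 with the columns as deposited, 4 with at least 5 RPKM, 10 with limma-voom, 1 with the length trend removed (Ppp1r15a, called lower, in place of Eef1e1 and Asns), 1 with no trended prior (Asns), 0 with a pseudocount of 0.1, no filter, median ratio, quantile or Trim21 left out, and 0 to 4 with one library left out. With the replicate number as a block, 0 genes passed over the whole table, 0 synthetases and 0 accessory genes. No label says whether equal replicate numbers mark paired pools. Same-numbered libraries had deviations correlated at -0.06, 0.02 and -0.05, and not every library correlated best with its own number. With 3 pools per group, these correlations cannot exclude a pairing.

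The cytosolic median log2 fold change of 0.25 became 0.060 with median ratio scaling, 0.057 with quantile normalization, 0.15 with Trim21 left out and -0.0052 with the length trend removed, and ran from 0.16 to 0.28 with one library left out. The mitochondrial median of 0.26 became 0.51 with a pseudocount of 0.1, 0.58 with at least 5 RPKM, 0.093 with median ratio scaling, 0.17 with Trim21 left out, -0.011 with quantile normalization and 2.33 with limma-voom, whose filter keeps other genes, and ran from 0.11 to 0.54 with one library left out. The median of all genes was 0.31 with a pseudocount of 0.1, 0.20 with at least 5 RPKM and 0.57 with limma-voom.

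Of the 25 tested members, 14 kept their sign under every alternative in which they were tested, 16 or 17 in number (Gars, Vars2 and Pars2 fall under the filter at 5 RPKM). Signs turned with the columns as deposited for Wars (0.022), Eprs (0.017), Aars (-0.14) and Lars2 (-0.17), with median ratio scaling for Lars (-0.088), with quantile normalization for Lars (-0.057), Lars2 (-0.011) and Wars2 (-0.29), with Trim21 left out for Lars (-0.00085), with the length trend removed for Farsb (-0.028), Eprs (0.017), Lars (-0.029) and Hars (-0.071), and with limma-voom for Mars1 (0.025). With one library left out, ranges that crossed 0 were -0.15 to 0.13 for Wars, -0.070 to 0.32 for Lars, -0.20 to 0.65 for Hars, -0.17 to 0.046 for Cars, -0.57 to 0.27 for Mars1, -0.30 to 0.54 for Lars2 and -0.16 to 0.55 for Wars2. The cause of these changes was not tested.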
